A study of Mus musculus with 2 samples.

Results

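Transcripts of 8 digestive protease genes of the exocrine pancreas were detected in liver RNA of mice lacking apolipoprotein E. There was 1 array for a diet with the unsaponifiable fraction of olive oil and 1 for a diet with olive oil. By the brightest probe set of each gene, signals were 2.99-fold to 13.1-fold lower on the first array than on the second. The genes were Ctrb1, Ctrl, Cpa1, Cpb1, Cela1, Cela2a, Cela3b and Prss2, 8 of the 12393 genes with a probe set of their own. Their probe sets were chosen by symbol from the platform annotation, which gave 15 of the 22690 probe sets on the array. The genes themselves were picked with earlier results of these same arrays known, so the difference between the arrays is a description of the chosen genes and supports nothing further.

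The series asks how types of olive oil relate to gene expression in the liver. All animals lacked apolipoprotein E, the ligand that clears lipoprotein remnants, and all ate a high-fat diet. The sample titled orujo came from animals whose high-fat diet was enriched in the unsaponifiable fraction, which holds what is left of an oil, such as sterols and terpenoid alcohols, once its fatty acids have been turned into soap. The sample titled olive came from animals whose high-fat diet was enriched in olive oil, and the arrays are called orujo and olive below. Each diet had 1 Affymetrix array. The sources used here do not give strain background, sex, age, the number of animals behind an array, any pooling or the way the liver was taken. With 1 array per diet there are no replicates, no value has an error between animals, and no test of the diets was possible.

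Acinar cells of the pancreas make digestive proteases as inactive zymogens, store them in granules and secrete them into the duodenum. There enteropeptidase cleaves trypsinogen, and the trypsin formed activates the chymotrypsinogens, proelastases and procarboxypeptidases. Serine proteases cut inside proteins, while the carboxypeptidases, which are zinc enzymes, remove residues from the carboxyl end. Hepatocytes are not known as a source of these zymogens. In RNA of a whole tissue sample, fewer cells of a type and less RNA per cell cannot be told apart.

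The deposited values are intensities on a linear scale, and the 2% trimmed mean was 100.05 on both arrays. A floor of 35.6, the median of both arrays pooled without control probe sets, stands in for detection calls. A gene above it on both arrays is called measured, and this held for 6640 of 12393 genes. Hepatocyte markers matched the liver label: 15 of 15 markers with a probe set were measured, their median log2 ratio was 0.06, and albumin (Alb) had a signal of 7692.5 on the orujo array and 8102.7 on the olive array. The lowest log2 ratio among these markers was that of Cebpa (−0.39) and the highest that of Arg1 (0.49). Apoe, the gene these animals lack, had 99.6 on the orujo array and 102.7 on the olive array, and the position of its probe set relative to the deletion is not known here, so it checks neither label.

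All 15 protease probe sets were at least 2-fold lower on the orujo array, against 1.22% of the 11433 probe sets that lay above the floor on the olive array. Their deposited signals had a lowest value of 24.7, a median of 84.1 and a highest value of 231 on the orujo array. On the olive array the lowest was 259.5, the median 667.9 and the highest 918.5. The 2 ranges did not overlap, but nothing is read from this because the genes were picked on this contrast. Several of the probe sets read the same gene, and probe sets are not replicates of a diet. On the orujo array 14 of the probe sets were still above the floor, so signal of the protease genes was low there but not lost. Only 1 of the 15 probe sets carried several symbols, and it is marked where it is described. A probe set with the suffix _x_at can pick up similar transcripts of other genes, and one with _a_at reads several transcripts of its own gene. There were 6 of the first kind, 4 of the second and 5 with neither suffix.

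**Figure D1:**
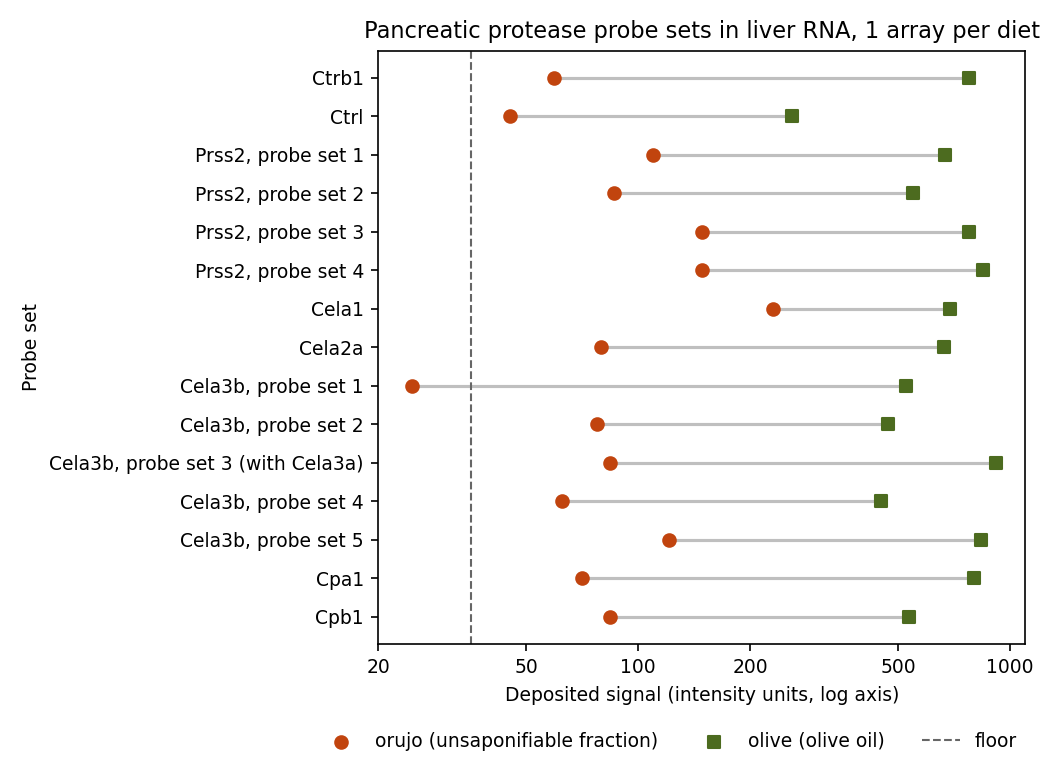
Deposited signal in intensity units (log axis) of each of the 15 protease probe sets on the orujo array (circles) and the olive array (squares), with 1 array per diet and no error bars; probe sets of a gene are numbered by identifier. Every circle lies left of its square, and only the first Cela3b probe set, at 24.7, falls below the dashed floor at 35.6.

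Counted by gene, with the brightest single-symbol probe set standing for each, 8 of 8 proteases were measured and 8 of 8 were at least 2-fold lower, against 0.979% of all measured genes, or 1.09% of the genes above the floor on the olive array where bounds are counted too. At 4-fold the counts were 7 of 8 proteases and 0.286% of all measured genes. The median log2 ratio of the 8 genes was −2.73, a 6.63-fold lower signal, while that of all measured genes was −0.02. Since this contrast was the basis on which the genes were picked, nothing is read from these shares. The 8 genes were not alike in size of difference: their log2 ratios had an SD of 0.66, and 0.48 without Cela1. Measurement noise of a single probe set was 0.30, as estimated from the SD of 0.43 between the log2 ratios of the 2 brightest measured probe sets of a gene. Such probe sets share the RNA and the hybridisation, so this noise contains no variation between animals.

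The chymotrypsinogen genes included the lowest ratio of all. Ctrb1, which encodes chymotrypsinogen B, a zymogen whose active form cuts after large hydrophobic and aromatic residues, had a signal of 59.2 on the orujo array and 778 on the olive array. This was a 13.1-fold lower signal (log2 ratio −3.72), the lowest of all 6640 measured ratios. Ctrl, which encodes a chymotrypsin-like protease, had a signal of 45.1 on the orujo array and 259.5 on the olive array, a 5.75-fold lower value at rank 8 from the lowest. The Ctrl probe set was the closest to the floor among those standing for a gene. Ctrb1 and Ctrl each had a single probe set, so their difference of more than 1 log2 unit could not be set against a second reading. Ctrc, a further chymotrypsinogen gene outside the 8, had 58.6 on the orujo array and 265.5 on the olive array and was 4.53-fold lower.

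Trypsinogen signal differed by a similar amount in each Prss2 probe set. Prss2, a trypsinogen gene whose product becomes the trypsin that activates the other zymogens, had 4 probe sets. The brightest had a signal of 148.5 on the orujo array and 848.2 on the olive array, a 5.71-fold lower value. The other 3 had 109.9, 86.1 and 148.8 on the orujo array, and 667.9, 549.3 and 775.6 on the olive array in the same order. Over the 4 probe sets the difference ran between 5.21-fold and 6.38-fold, a range of 0.29 log2 units. The noise of a single probe set, 0.30, is an SD and not a range, so the 2 values are not the same measure. Of the 4, 3 are _x_at probe sets and the mouse genome holds many close trypsinogen copies, so the Prss2 readings may include transcripts of other trypsinogen genes and may not be independent of each other. A probe set annotated to Try5 and Try4, other trypsinogen genes, had a signal of 29.4 on the orujo array and 436.3 on the olive array, a bound of at least 12.3-fold lower. A probe set annotated to Prss1, Prss3 and 2 predicted genes was below the floor on both arrays, at 0.6 on the orujo array and 7.7 on the olive array.

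The elastase genes included both a large and the smallest difference. Cela2a had a signal of 79.6 on the orujo array and 666 on the olive array, an 8.37-fold lower value at rank 3 from the lowest. Cela3b, read by its brightest single-symbol probe set, had 121.3 on the orujo array and 836.9 on the olive array, a 6.90-fold lower value. Cela1 had 231 on the orujo array and 690.8 on the olive array, a 2.99-fold lower value at rank 23. All 3 encode chymotrypsin-like elastases, which are also made as zymogens. The log2 ratio of Cela1, −1.58, stood 0.93 above that of Prss2 (−2.51), its nearest neighbour in the order of the 8 genes. This gap is 2.17 times the SD of 0.43 between 2 probe sets of a gene, but Cela1 too had only 1 probe set.

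The remaining Cela3b probe sets were all lower on the orujo array but differed in size. One had 77.6 there and 470.5 on the olive array (6.06-fold lower), and another had 62.2 on the orujo array and 449.9 on the olive array (7.23-fold lower). Yet another lay below the floor on the orujo array, at 24.7 against 525.9 on the olive array, which gives a bound of at least 14.8-fold. The probe set annotated to both Cela3a and Cela3b had 84.1 on the orujo array and 918.5 on the olive array, a 10.9-fold lower signal. The measured Cela3b readings spanned 0.85 log2 units with the probe set shared with Cela3a (−3.45) included. Without it the measured ones lay between −2.85 and −2.60. The bound of at least 14.8-fold (−3.88) came from a probe set of Cela3b alone and lay beyond the shared one. The spread of all readings therefore did not rest on the shared probe set. Cross-hybridisation between the elastase 3 genes was not tested as a part of that spread.

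The carboxypeptidase genes were lower together with the serine protease genes. Cpa1, which encodes carboxypeptidase A1, an enzyme that removes carboxyl-terminal aromatic and aliphatic residues, had a signal of 70.6 on the orujo array and 800.3 on the olive array. It was 11.3-fold lower (log2 ratio −3.50) and second in rank after Ctrb1. Cpb1, which encodes carboxypeptidase B1, an enzyme that removes basic residues, had 84.1 on the orujo array and 536.6 on the olive array, a 6.38-fold lower value at rank 6. Cpa1 and Cpb1 were read by probe sets with neither suffix. The order of the 8 genes was Ctrb1, Cpa1, Cela2a, Cela3b, Cpb1, Ctrl, Prss2 and Cela1, and the steps between neighbours from Ctrb1 to Prss2 were all smaller than the SD of 0.43 between probe sets except the one between Cpa1 and Cela2a, so most neighbours did not differ beyond measurement noise.

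The control regions of the elastase genes and of Ctrb1 are shown because these 4 genes hold both ends of the range. In acinar cells many zymogen genes are switched on by PTF1, a complex of Ptf1a with a partner and with RBPJ or its acinar paralog RBPJL, which binds an E-box next to an RBPJ motif. The 250 bases before each gene's start were taken from RefSeq (build GRCm38.p6), where 8 of 8 genes matched, and the motifs were searched on both strands. Capitals mark an E-box of the form CACCTG or its reverse complement CAGGTG, an RBPJ motif TTCCCA or its reverse complement TGGGAA, or a TATA box TATAAA or its reverse complement TTTATA, and no motifs overlapped in these windows. Each sequence reads 5′ to 3′ on the gene's strand and ends at the base before the start. The windows are chr8:111691011-111691260 on the minus strand for Ctrb1, chr15:100687921-100688170 on the minus strand for Cela1, chr4:141826006-141826255 on the minus strand for Cela2a, and chr4:137430521-137430770 on the minus strand for Cela3b.
Ctrb1: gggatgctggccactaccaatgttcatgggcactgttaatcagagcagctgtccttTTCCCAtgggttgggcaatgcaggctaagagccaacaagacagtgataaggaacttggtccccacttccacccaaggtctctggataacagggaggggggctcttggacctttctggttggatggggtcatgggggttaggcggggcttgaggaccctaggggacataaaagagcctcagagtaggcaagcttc
Cela1: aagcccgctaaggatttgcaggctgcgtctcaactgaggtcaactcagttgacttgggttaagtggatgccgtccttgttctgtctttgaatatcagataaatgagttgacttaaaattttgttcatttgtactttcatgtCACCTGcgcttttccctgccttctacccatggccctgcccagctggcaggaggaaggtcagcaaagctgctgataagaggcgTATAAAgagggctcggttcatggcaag
Cela2a: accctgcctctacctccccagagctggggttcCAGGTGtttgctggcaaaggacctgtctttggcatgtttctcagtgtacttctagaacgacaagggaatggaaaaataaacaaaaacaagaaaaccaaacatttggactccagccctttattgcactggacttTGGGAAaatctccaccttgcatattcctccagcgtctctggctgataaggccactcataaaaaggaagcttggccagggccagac
Cela3b: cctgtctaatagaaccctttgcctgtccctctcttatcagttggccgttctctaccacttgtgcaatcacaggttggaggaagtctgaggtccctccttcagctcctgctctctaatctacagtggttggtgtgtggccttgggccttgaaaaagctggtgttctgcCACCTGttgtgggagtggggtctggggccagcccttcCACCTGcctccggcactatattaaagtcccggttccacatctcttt

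In these windows Ctrb1 held an RBPJ motif at −194 to −189 and no E-box of this form. Cela1, the gene with the smallest difference, held an E-box at −109 to −104 and a TATA box at −27 to −22. Cela2a held an E-box at −218 to −213 and an RBPJ motif at −85 to −80, and Cela3b held E-boxes at −83 to −78 and at −46 to −41. Over the 8 protease genes, 6 windows held this E-box, against 17.2% of all 32851 windows of the same length. The RBPJ motif was found in 5 of the 8, against 21.6% of all windows, the TATA box in 2 of the 8, against 12.4%, and both E-box and RBPJ motif in 3 of the 8 (Ctrl, Cela2a and Prss2), against 3.91%. No spacing between the motifs was required, and in these 3 genes they were not adjacent. The E-box began at −149 and −93 in Ctrl, −218 in Cela2a and −169 in Prss2. The RBPJ motif began at −189, −85 and −111 in the same order. The shares are therefore not counts of PTF1 sites, and variants of the letters searched, in Cela1 or elsewhere, were not marked. A match describes letters and not a site in use.

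Genes with a difference like that of the proteases included other products of the pancreas and genes of other functions. Of the 12 lowest measured ratios, 7 belonged to the 8 proteases, a count that depends on the processing (3 with a floor at the 75th percentile, where 3 proteases were measured, 4 without probe sets common to several transcripts, where 5 were, and 5 with probe sets of several symbols included). Another 15 genes had a log2 ratio at or below that of Cela1, over these 2 arrays, and 6 of them were on the lists of acinar secretory or digestive protease genes. The lowest was Clps, colipase, the cofactor of pancreatic lipase, with 51.3 on the orujo array and 393.1 on the olive array (7.66-fold lower). Dmbt1, a secreted scavenger receptor protein of epithelia, was 6.13-fold lower, and Cel, the bile salt-dependent lipase, was 5.44-fold lower. Rnase1, pancreatic ribonuclease, was 4.16-fold lower and ranked 19. Ctrc, given above, and Reg1, given below, complete the 6.

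The other 9 genes in that range were on neither list by symbol. The gene listed as 2210010C04Rik, a symbol that names no function, was 4.90-fold lower. Lists were matched by current symbol alone. Whether this gene is a listed protease without a probe set under its listed symbol, such as Prss3b, was not checked. Hspb1, which encodes a small chaperone, had 153.7 on the orujo array and 849.3 on the olive array (5.53-fold lower). Among glutathione transferase genes, Gstm3 was 5.06-fold lower, Gsta4 4.65-fold and Gsta2 4.54-fold. The clock gene Nr1d1, which encodes REV-ERBα, was 4.39-fold lower, and Lactb, a mitochondrial serine protease-like protein, was 4.21-fold lower. A like ratio over 2 arrays says nothing of a shared origin. Among genes read by their brightest single-symbol probe set, the 4 largest bounds in this direction were those of Pnliprp1, a pancreatic lipase-related protein (at least 6.92-fold lower), Sycn, the zymogen granule protein syncollin (at least 6.82-fold), Smpd2, a sphingomyelinase (at least 4.94-fold), and Lsm7, an RNA-binding protein of the splicing machinery (at least 3.21-fold).

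**Figure D2:**
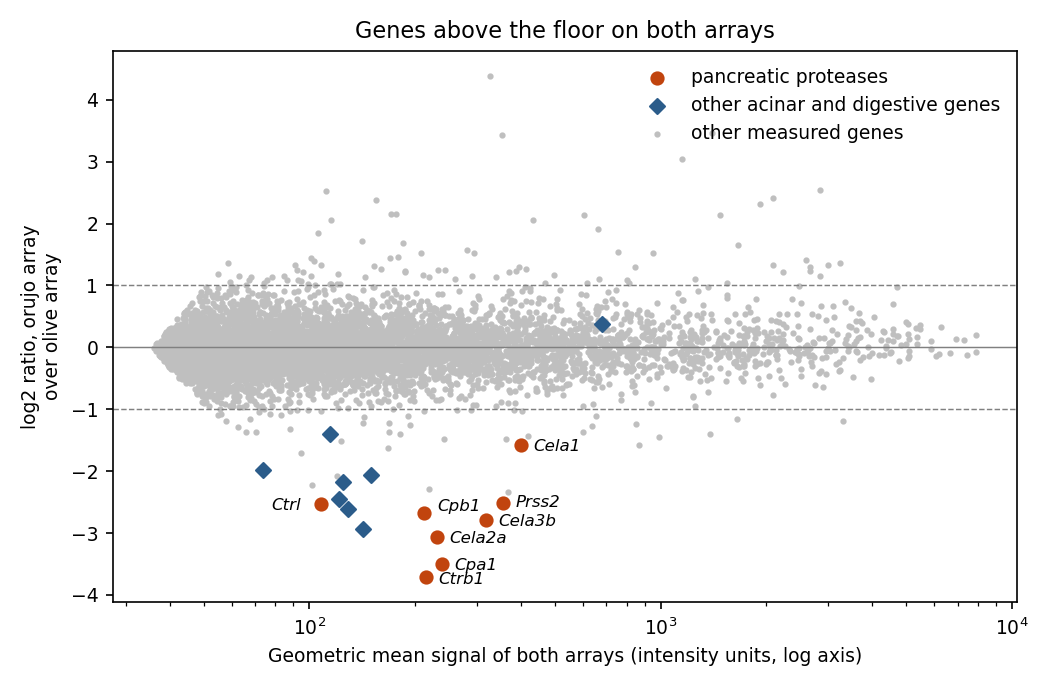
Log2 ratio of the orujo array over the olive array against the geometric mean signal of both arrays (intensity units, log axis), 1 point per gene above the floor on both arrays. The 8 proteases (circles) lie between −3.72 and −1.58 and most other acinar and digestive genes (diamonds) between −2.94 and −1.40, with Amy1 at 0.38 the exception, while dashed lines mark 2-fold.

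Other secretory genes of the acinar cell were lower on the orujo array as well, with exceptions. Of 24 listed genes 19 had a probe set with 1 symbol and 7 were measured, of which 6 were at least 2-fold lower, against 0.979% of all measured genes, and 0 at least 2-fold higher, against 1.33%. Their median log2 ratio was −2.06, and 3 further genes were lower by a bound of at least 2-fold: Pnliprp1, Sycn and Gp2. Over all 19 genes the signals summed to 1294 on the orujo array and 3043 on the olive array, and without Amy1, the brightest of them, to 518.6 on the orujo array and 2445.4 on the olive array. Reg1, a regenerating protein secreted by acinar cells, was 3.95-fold lower, and Zg16, a zymogen granule protein, 2.63-fold lower. Gp2, the main membrane glycoprotein of zymogen granules, was lower by a bound of at least 2.33-fold.

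The amylase genes differed from each other. Amy1, the amylase gene of salivary gland and liver, had a signal of 775.7 on the orujo array and 597.8 on the olive array, the only positive log2 ratio (0.38) among the 7 measured genes. The probe set shared by Amy2a5 and 4 other pancreatic amylase genes had 181.6 on the orujo array and 1099.4 on the olive array, a 6.05-fold lower signal that is close to that of Prss2. Reg2 passed the floor on the orujo array alone, at 47.3 against 25 on the olive array. Spink1, the trypsin inhibitor that acinar cells secrete with the zymogens, was below the floor on both arrays, at 2.8 on the orujo array and 10.5 on the olive array.

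Of the further digestive proteases, 6 of 15 had a probe set with 1 symbol under the listed symbol, and Ctrc was the only one of these measured. Klk1, tissue kallikrein, was above the floor on the olive array alone, with signals of 10.6 on the orujo array and 51.9 on the olive array, a bound of at least 1.46-fold. Tmprss15, which encodes the intestinal enteropeptidase, was below the floor on both, as was the gastric protease gene Pgc. The pepsinogen gene Pga5 had 32.7 on the orujo array and 44.2 on the olive array, a bound of under 2-fold.

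Of the regulators particular to acinar cells, Ptf1a, Bhlha15 and Cckar had no readable ratio, while Rbpjl had a positive one. Ptf1a, the transcription factor that defines the acinar lineage, had a signal of 20.1 on the orujo array and 17 on the olive array, both below the floor. Bhlha15, which encodes the acinar maturation factor MIST1, was below the floor too, at 27.3 on the orujo array and 30.3 on the olive array, and so was Cckar, the cholecystokinin receptor, at 2.7 on the orujo array and 8.8 on the olive array. Of 12 listed genes with a probe set, 8 were measured, most of them genes that liver also expresses, with a median log2 ratio of −0.12. Aqp8, a water channel found in acinar cells and in hepatocytes, was lowest, at 65.1 on the orujo array and 130.9 on the olive array (2.01-fold lower). It was the single one past 2-fold, where 0.979% of all measured genes were at least 2-fold lower. Rbpjl, the acinar paralog of RBPJ, was highest at 0.56, opposite in sign to the proteases. It had a signal of 53.4 on the orujo array and 36.2, just above the floor, on the olive array. Its other probe set was below the floor on both arrays. Nr5a2, used in both acinar cells and liver, was at −0.19 by its brightest probe set and at 0.05 and 0.14 by its other measured ones, and the secretory cell factor Xbp1 was at −0.16, with 0.32 in both of its dimmer probe sets and −0.07 in another.

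Most markers of pancreatic islets and ducts were too low to give a ratio. Of 15 islet markers with a probe set, 11 were below the floor on both arrays, among them the hormone genes Ins2 (signal of 4.3 orujo, 24.5 olive), Gcg (5.1 orujo, 10.5 olive), Iapp (1.6 orujo, 10.4 olive) and Ppy (2.2 orujo, 3.3 olive). The 2 measured ones, Slc2a2, a glucose transporter that hepatocytes also use, and Neurod1, were at −0.56 and −0.45. The hormone gene Sst and Pcsk1 were above the floor on the orujo array alone. Sst had 40.8 there and 22.3 on the olive array, and Pcsk1 had 36 on the orujo array and 12.6 on the olive array. Of 12 duct markers, 6 were below the floor on both arrays and 5 were measured, with a median of 0.10 and 0 past 2-fold in either direction. Over all measured genes 0.979% were at least 2-fold lower and 1.33% higher, so this count is near the background. Among the measured duct markers Krt8, a keratin that hepatocytes also make, was at −0.71 and Onecut1 at 0.52. The duct-defining genes Cftr (2.5 orujo, 6.6 olive) and Sox9 (1.4 orujo, 1.5 olive) were below the floor on both arrays, while Krt19 had 15.9 on the orujo array and 42.1 on the olive array.

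Markers of gut and fat were likewise without a measured gene past 2-fold by its brightest probe set. Over all measured genes 0.979% were at least 2-fold lower and 1.33% higher, so counts of 0 among so few are near the background. Of 16 intestine and stomach markers, 7 were measured, with a median of −0.20, between Anpep, an aminopeptidase, at −0.71 and Tff3, a trefoil factor, at 0.92. The enterocyte genes Vil1 (1.2 orujo, 12.9 olive) and Lct (7.9 orujo, 17.8 olive) were below the floor on both arrays. Of 8 adipocyte markers, 4 were measured, with a median of −0.37, between Lpl at −0.67 and Fabp4 at 0.84, and Adipoq, the defining one, was below the floor on both arrays. Car3, at −0.49 by its brightest probe set, had a second one at −1.22.

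**Figure D3:**
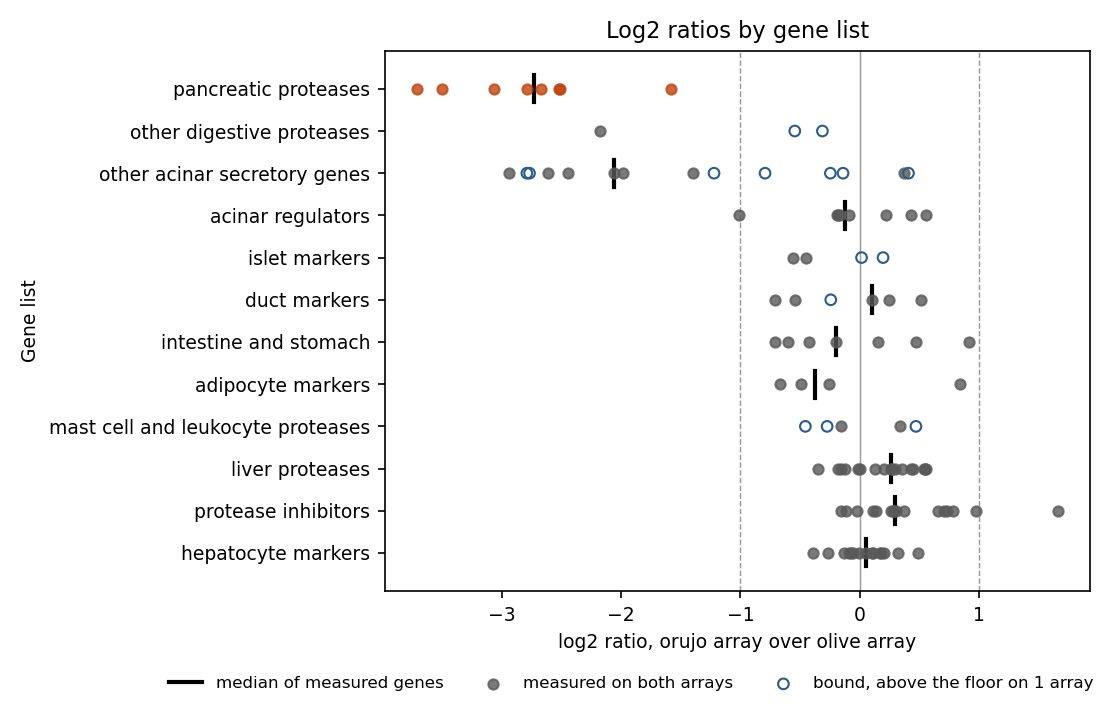
Log2 ratio of the orujo array over the olive array for the genes of each list, with filled points for genes measured on both arrays, open points for bounds and a bar for the median of lists with 3 or more measured genes; dashed lines mark 2-fold. The proteases (median −2.73) and the other acinar secretory genes (median −2.06) lie to the left, and the medians of the other lists drawn lie between −0.37 and 0.30.

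Proteases that the liver makes had ratios within 2-fold. Of 18 liver protease genes with a probe set, 17 were measured and 12 had a positive log2 ratio, against 47.1% of all measured genes. The median was 0.26. In either direction 0 passed 2-fold, against 0.979% lower and 1.33% higher among all measured genes. A count of 0 among so few is near the background. Cpn2, a subunit of the plasma carboxypeptidase N, was highest at 0.56, with its catalytic partner Cpn1 at 0.36, and C1s1, a complement protease, was at 0.55. Klkb1, plasma prekallikrein, was lowest at −0.35. Plg, plasminogen, had a signal of 4712 on the orujo array and 3922.8 on the olive array. Of 13 mast cell and leukocyte protease genes, 8 were below the floor on both arrays and have no ratio. The 2 measured ones were Elane, neutrophil elastase, at 0.34 and Hpn, which is on the liver protease list too, at −0.16. Prtn3 was above the floor on the orujo array alone, at 49.4 against 13.6 on the olive array. This gave a bound of at least 1.39-fold higher. Cpa3, the carboxypeptidase of mast cells, had 21.1 on the orujo array and 43 on the olive array, and Cma1, mast cell chymase, had 33.5 on the orujo array and 48.8 on the olive array, both bounds of under 2-fold.

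Protease inhibitors that the liver secretes had ratios within 2-fold with 1 exception, though several positive ones exceeded the single probe set noise of 0.30. Of 16 measured genes 13 had a positive log2 ratio, against 47.1% of all measured genes, the median was 0.30 (0.21 with quantile normalization), and 1 gene was at least 2-fold higher, against 1.33% of all measured genes. This was Serpina3n, an acute phase serpin, with 2959.6 on the orujo array and 935.4 on the olive array (3.16-fold higher). Itih4, an acute phase inter-alpha-trypsin inhibitor chain, was at 0.98 and Serpina10, which encodes the protein Z-dependent inhibitor, at 0.79, while Serpind1, heparin cofactor II, was lowest at −0.15. Serpina1c and Serpina1b, which encode α1-antitrypsins, the main plasma inhibitors of neutrophil elastase, were at 0.29 and −0.03.

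RNA quality controls also differed between the arrays. The control probe set at the 5′ end of 18S ribosomal RNA had a signal of 2294.3 on the orujo array and 394.9 on the olive array, and the middle one 1231.6 on the orujo array and 221.3 on the olive array. The 3′ one had 5501.8 on the orujo array and 4343.3 on the olive array. Those for Gapdh had log2 ratios between 0.09 and 0.15, those for β-actin between −0.27 and 0.01, and those for pyruvate carboxylase (Pcx) between 0.52 and 0.76. Of the other control probe sets, those named for BioB, BioC, BioD and Cre had log2 ratios between −0.03 and 0.74. Their part in the protease difference was not tested, and with 1 array per diet the diet, the animals, the dissection and the array cannot be told apart.

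**Figure D4:**
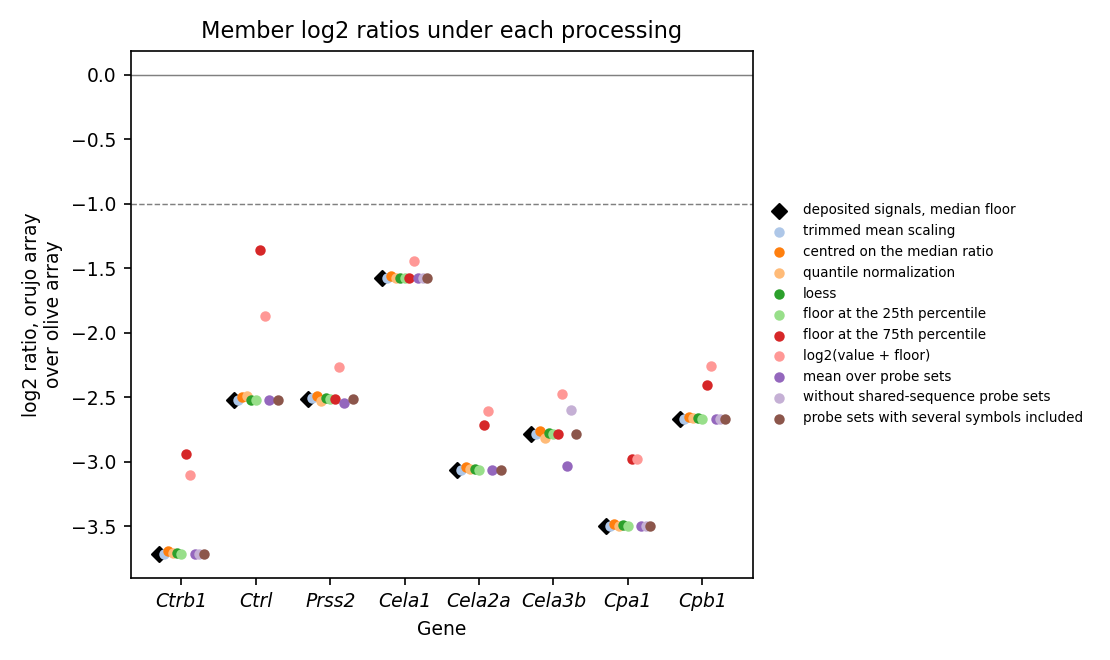
Log2 ratio of the orujo array over the olive array for each of the 8 proteases under the processing used in the text (diamonds) and under each alternative that gave a value (circles); the dashed line marks 2-fold lower. All points lie between −3.72 and −1.36, and those with a higher floor or an added constant lie nearer to 0.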

How the data were processed

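Liver RNA was hybridised to 1 oligonucleotide array per diet, with targets made by the manufacturer's procedure from total RNA, per the labels' protocols. The values deposited by the authors are linear intensities, 1 per probe set; the sources used here name neither the software nor detection calls. Precision is limited by the number of arrays.

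After 64 control probe sets were set apart, signals under the floor (50th percentile, 35.6) were set to the floor before taking log2, with no rescaling. A log2 ratio is the unsaponifiable fraction minus olive oil. The platform annotation gave 1 symbol to 20380 probe sets, several to 691 and none to 1555. Of those with 1 symbol, 20351 matched a GRCm38.p6 RefSeq gene by Entrez identifier, and 0 symbols changed. No build is given for the probe sets. A gene with several probe sets was read from the one brightest on average.

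No test was possible. The members and gene lists were chosen with earlier results of these data known. The text names every protease probe set, the 12 lowest ratios and 4 lowest bounds outside the 8, and from each list the lowest, the highest and up to 4 further genes of large ratio, besides defining markers below the floor. Genes and second probe sets named beyond that rule were added after their values were seen. The calculation was tested on simulated data, in Python 3.11.15 with pandas 2.3.3, scipy 1.17.1 and statsmodels 0.14.6. Alternatives were other scalings (trimmed mean, median centring, quantile, loess with span 0.4), a floor at the 25th or at the 75th percentile, log2(value + floor), other ways to combine probe sets, and a limit of 4-fold.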

Additional observations from a re-analysis of the deposited data

How the results depend on the processing

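With no replicates, a value counts as moved when it shifts by more than 0.30 log2 units, the noise of a single probe set, or a count by more than 1.5 times. The 8 protease genes gave 77 values under 10 alternatives, all at least 2-fold lower, between −3.72 and −1.36. Of these, 67 stayed within the noise and 10 moved, all with the 75th percentile floor or log2(value + floor), both of which raise the low signals. The median of the proteases was −2.37 with log2(value + floor) and between −2.85 and −2.51 under the other alternatives. At the 75th percentile floor only 3 of the 8 were measured, and the rest were bounds. Without probe sets whose suffix (_a_at, _x_at and the like) marks probes common to several transcripts, 5 proteases had a probe set and 5 were at least 2-fold lower, as were 5 other acinar genes, in place of 9 with bounds included. The median of the other acinar genes was −1.65 with log2(value + floor). It was 0.38 at the 75th percentile floor, where Amy1 was the only one measured. Over all genes, 2-fold lower ratios numbered 65 with the median floor, 223 at the 25th percentile floor, 27 at the 75th and 41 with log2(value + floor), while 2-fold higher ones numbered 88, 196, 50 and 56 in the same order. The SD between probe sets of a gene was 0.54 and 0.38 at the lower and higher floor. No paired analysis was possible because the labels give no replicate numbers and each diet has 1 array. Signals near the floor limit every ratio: a gene such as Ctrl, close to the floor on one array, has a less certain ratio than its brighter neighbours.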

Other observations

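Genes that lie beside the proteases in the genome were read as well. For each of the 8 proteases the nearest protein-coding gene with a probe set on either side, other than the 8, was read in the RefSeq gene order of GRCm38.p6, which gave 16 genes. Of these, 8 were measured, 7 were below the floor on both arrays and 1 had a bound, and among the measured ones 0 were at least 2-fold lower or higher, against 0.979% and 1.33% of all measured genes, so a count of 0 among so few is near the background. Bcar1, an adaptor protein gene next to Ctrb1, had 69.5 on the orujo array and 76.9 on the olive array (log2 ratio −0.15). Psmb10, an immunoproteasome subunit gene next to Ctrl, was at −0.36, and Edc4, of messenger RNA decapping, on the other side of Ctrl, was lowest at −0.66. Efhd2, next to Cela2a, was highest at 0.63. Cpa5, which neighbours Cpa1 and encodes another carboxypeptidase A, was below the floor on both arrays, at 19.6 on the orujo array and 15.5 on the olive array.

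The gene listed as 2210010C04Rik was read by 3 probe sets that differed in level. One had 63 on the orujo array and 563.1 on the olive array (8.94-fold lower), another 99.2 on the orujo array and 486 on the olive array (4.90-fold lower), and the last 25.7 on the orujo array and 46.4 on the olive array, a bound of at least 1.30-fold lower. Zg16 was similar: beside its measured reading of 2.63-fold lower, a second probe set with 19.5 on the orujo array and 203.8 on the olive array gave a bound of at least 5.72-fold, and the last gave at least 1.65-fold. These are values of single arrays and were singled out after they were seen.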
